A study of Mus musculus with 4 samples.

Results

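In tumour-infiltrating myeloid cells of the mouse, the genes followed here are the C-type lectin receptors Mrc1, Mgl2, Clec10a, Cd209a, Clec4n, Clec4d, Clec4e, Clec7a and Clec9a, together with Retnla, which encodes resistin-like molecule alpha. They were taken by symbol, as 10 of the 55450 genes of the deposited matrix, and each reached 10 CPM (defined below) in at least 1 myeloid cell class of at least 1 library, Retnla in library 2 alone. The study grew tumours of 4T1, a mouse mammary carcinoma line, in the flank of female BALB/c mice aged 6 to 8 weeks, injected TIOs (a T-cell-inspired oncolytic system, a light-driven particle made to lyse cancer cells) or phosphate-buffered saline (PBS) into a vein on day 7, lit the tumours for 5 min with near-infrared light (NIR, of 980 nm at 1.0 W cm-2) on days 8, 9 and 10, and took them on day 13 to sequence single CD45+ cells. By their labels 2 samples were PBS, which also received the light, and 1 was TIOs+NIR. 1 more was titled PBS but described under TIOs, and was left without a group. All of them shared 1 tumour line and the same light.

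The matrix pools the samples as 4 libraries, told apart by the number at the end of each barcode, and nothing used here ties that number to a sample. They are called library 1 to library 4, their treatments are unknown, and so neither a comparison of treatments nor a p-value is given. Each value is given per library, and its interval is an exact 95% interval for counting error only; the limit given for a count of 0 is instead that of 3 counts.

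C-type lectins are receptors of innate immune cells that bind sugars or other molecules on microbes and on damaged or dying cells. The mannose receptor Mrc1 and the galactose-type lectins Mgl2 and Clec10a take up glycoproteins, are raised by interleukin 4 (IL-4) and are widely used with Retnla to mark alternatively activated, or M2, macrophages. Dectin-2 (Clec4n), MCL (Clec4d), Mincle (Clec4e) and Dectin-1 (Clec7a) signal through the kinase Syk and the adaptor Card9 to inflammatory cytokine genes, while Clec9a lets dendritic cells sense dead cells.

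Of the barcodes, 32133 held at least 300 genes and at most 15% mitochondrial unique molecular identifiers (UMIs, the counted RNA molecules), and 16781 of them entered 1 of 7 myeloid gates. A gate is the marker panel on which a cell scored highest, with at least 3 of its genes detected; no gate used any of the 10 genes. Neutrophil-gated cells numbered 629, 2801, 2884 and 1846 in libraries 1 to 4, macrophage-gated cells 1296, 1168, 348 and 1426, monocyte-gated cells 37, 332, 369 and 2604, and dendritic cells of the general panel (the DC gate) 43, 97, 67 and 144. All 10 neutrophil panel genes, and 9 of 10 macrophage ones, were highest in their own gate, which the gating by these same genes favours. For monocytes it was 4 of 9 and for the DC gate only 2 of 9, so the DC gate is named by its rule and not as a subtype. Library 1 stood apart. It was the deepest (median 11698 UMIs a cell, against 2642 to 7182), 50.6% of its cells fell in the tumour gate despite the CD45 sort, and tumour panel genes summed to 652 UMIs per 1000000 UMIs (CPM) in its macrophage gate against 0.982 to 36.0 CPM in the others, whereas fibroblast panel genes summed to 153 CPM there against 864 to 2017 CPM. The fibroblast gate took 1.63% of the cells of library 1, and 18.1, 15.2 and 12.5% of those of libraries 2, 3 and 4. Cells not expected after the sort were thus not limited to library 1. What the tumour and fibroblast cells and transcripts add to the results was not tested. Any 2 libraries shared 11 to 23 barcodes.

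The promoters of 8 of the 10 genes are in RefSeq's table for GRCm38.p6. Clec4d and Clec4e are shown because they are neighbours on chromosome 6 whose levels ran together, Mrc1 as the gene led by macrophages, and Retnla as the gene that is no lectin. Each line gives 150 bases upstream of the first annotated base, 5′ to 3′ on the strand of the gene. Capitals mark matches, on either strand, to the PU.1 core GAGGAA, to the C/EBP motif TTGCNNAA and to the STAT6 motif, TTC and GAA set 4 bases apart.
Mrc1 (chr2:14229242-14229391, plus strand): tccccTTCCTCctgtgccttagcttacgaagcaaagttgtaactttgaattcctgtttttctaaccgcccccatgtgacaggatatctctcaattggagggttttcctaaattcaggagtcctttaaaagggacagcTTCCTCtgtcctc
Clec4d (chr6:123261957-123262106, plus strand): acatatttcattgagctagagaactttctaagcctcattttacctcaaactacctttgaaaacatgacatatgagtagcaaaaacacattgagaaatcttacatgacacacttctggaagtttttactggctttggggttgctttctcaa
Clec4e (chr6:123289872-123290021, minus strand): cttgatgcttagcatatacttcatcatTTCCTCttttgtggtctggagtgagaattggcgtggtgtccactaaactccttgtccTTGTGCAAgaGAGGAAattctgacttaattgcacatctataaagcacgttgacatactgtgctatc
Retnla (chr16:48842401-48842550, plus strand): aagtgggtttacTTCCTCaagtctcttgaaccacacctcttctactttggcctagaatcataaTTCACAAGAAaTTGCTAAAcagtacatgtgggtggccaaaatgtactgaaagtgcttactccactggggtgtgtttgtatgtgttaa
Counted from the RefSeq start, the Clec4e window held a PU.1 core at -123, a C/EBP match at -66 and a PU.1 core at -56, and the 150 bases shown for Clec4d held none of these letters. The Retnla window held a PU.1 core at -196, a STAT6 match at -145 and a C/EBP match at -134, and the Mrc1 window PU.1 cores at -167 and -35. The longer windows of the table added PU.1 cores at -240 for Clec4d and -180 for Mrc1. Of the promoters not shown, that of Clec7a held a STAT6 match, at -131 and -125 in its 2 entries, and a PU.1 core, at -96 and -90. That of Mgl2 held a PU.1 core at -225. Of all 32851 such longer windows (the 250 bases before the start), 23.3% held the PU.1 core, 9.56% the C/EBP motif and 5.85% the STAT6 motif. The longer windows of Cd209a and Clec9a held none of these motifs. An NF-kB motif was also searched for, and 1.41% of all windows held it, but none of those of the genes followed here. The PU.1 core is thus common, and all matches are given as a description only.

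The genes divided among the myeloid gates. For 7 of the 10 (Mrc1, Mgl2, Cd209a, Clec4d, Clec4e, Clec7a and Clec9a) the same gate held the highest level in every library, against 13.9% of the 10183 genes at 10 CPM or more. Here and below a level is a gene's share of the UMIs in a gate, scaled to 1000000 (CPM), used where the gate held at least 20 cells. The plasmacytoid dendritic cell gate held 15 cells in library 1, and the mature dendritic cell gate 19 in library 1 and 5 in library 4. Neither gate could thus lead any gene in every library. For Cd209a and Clec9a the next gate was plasmacytoid cells in libraries 2, 3 and 4, but macrophages in library 1. Clec4e and Clec9a were also led at least 2-fold in each library, against 3.00% of the genes. For Clec9a this rested on few UMIs, since the next gate held 3 in library 2 and 5 in library 3. The lead of Clec9a in library 3 was 2.65-fold (1.03 to 8.66), and 3 alternative settings given at the end ended its call. Clec9a was also not called when cells with tumour, stromal or lymphoid genes were removed. That left the type 1 dendritic cell gate in too few libraries, so its lead could not be tested there. With only 1000 UMIs drawn from each cell, Cd209a no longer had the same leading gate in every library. Neutrophils led Clec4d, Clec4e and Clec7a, macrophages led Mrc1, the DC gate led Mgl2 and Cd209a, and type 1 dendritic cells led Clec9a.

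**Figure D1:**
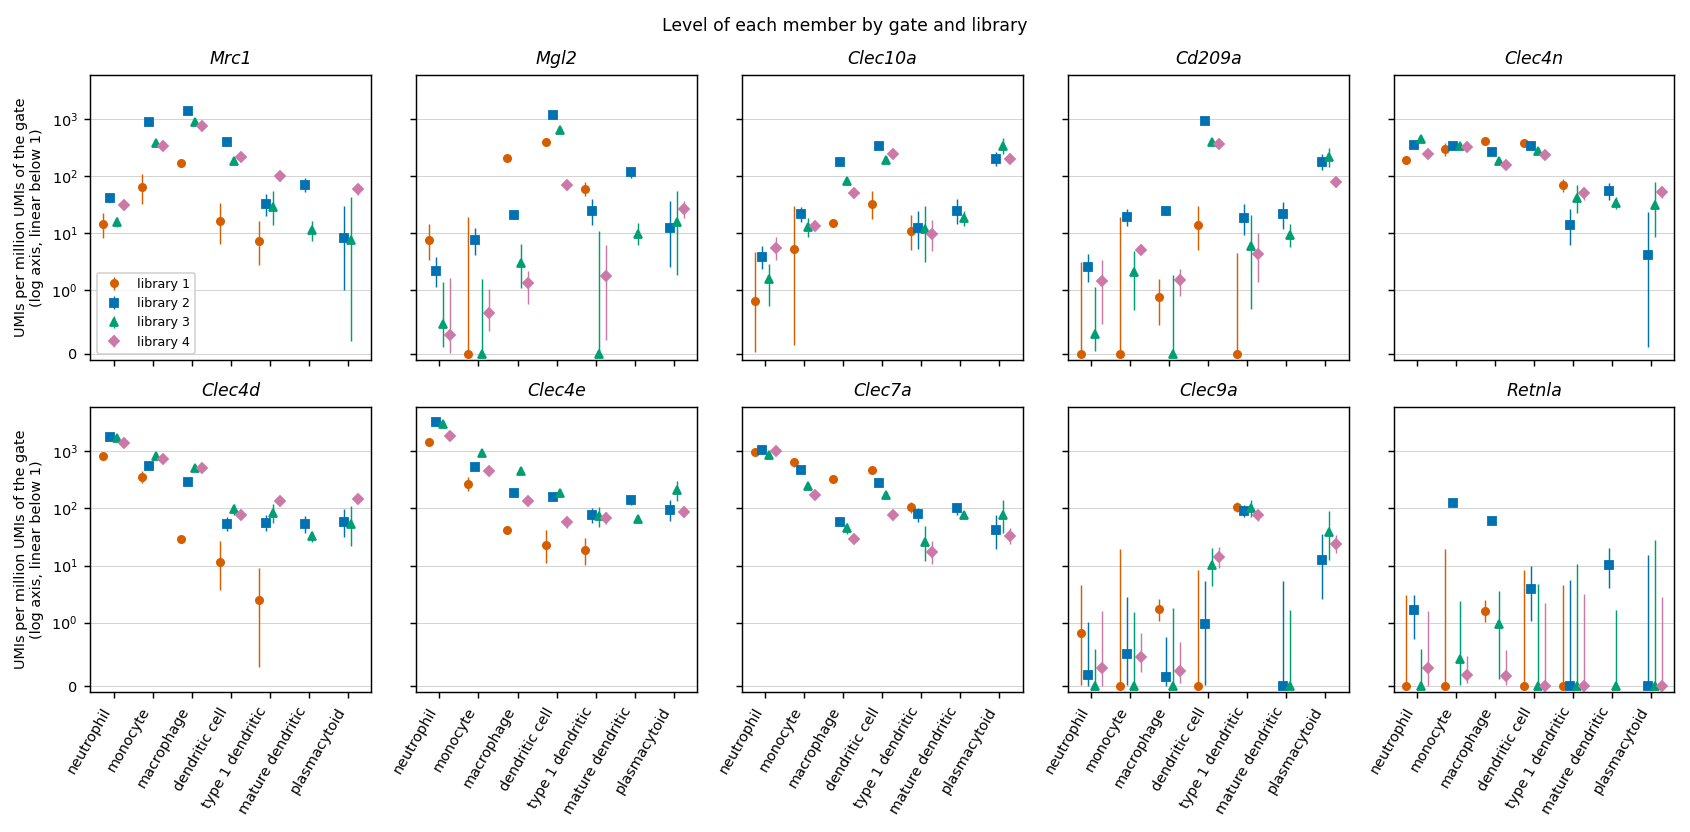
Level of each of the 10 genes (UMIs per 1000000 UMIs of the gate, log axis that is linear below 1) in the 7 myeloid gates. Each point is 1 library, bars are exact 95% Poisson intervals for counting error, and gates with fewer than 20 cells in a library are not drawn; the orange points of library 1 lie below the others for Mrc1 and above them for Mgl2 and Clec7a in the macrophage gate.

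Mrc1 (ENSMUSG00000026712, chromosome 2: 14229392-14332057, GRCm38) encodes the mannose receptor CD206, and it was a gene of macrophages and, less, of monocytes. In the macrophage gate its level was 166 CPM in library 1, 1401 CPM in library 2, 872 CPM in library 3 and 742 CPM in library 4. In the monocyte gate it was 63.3, 897, 376 and 333 CPM in the same order. Macrophages were thus higher than monocytes in 4 of 4 libraries, by 2.63-fold (1.5 to 5.09) in library 1, 1.56-fold (1.49 to 1.64) in library 2, 2.32-fold (2.14 to 2.52) in library 3 and 2.23-fold (2.16 to 2.30) in library 4, although the ranges of both gates over the libraries overlapped. The DC gate followed with a median of 199 CPM, and neutrophils lay near the bottom at 14.2 to 40.5 CPM.

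Within the macrophage gate, Mrc1 was higher beside Cd163, the haemoglobin scavenger receptor. Cells with a Cd163 UMI held Mrc1 at 966, 1865, 1436 and 1167 CPM in libraries 1 to 4, and cells without one at 150, 964, 606 and 511 CPM, a difference beyond counting error in 4 of 4 libraries. Clec10a went the same way in all 4, from 14.9, 83.3, 47.0 and 31.7 CPM without Cd163 to 33.7, 275, 152 and 84.5 CPM with it, with overlapping intervals in library 1 alone. Clec4e went the other way in 4 of 4 libraries, at 42.1, 194, 455 and 150 CPM without Cd163 and 26.2, 183, 440 and 103 CPM with it, and the intervals overlapped in libraries 1 to 3. Only 26 of 1296 macrophage-gated cells of library 1 held a Cd163 UMI, against 528 of 1168 in library 2, so the low Mrc1 of library 1 went with a near absence of Cd163; cells without Cd163 were still lowest in Mrc1 in library 1.

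**Figure D2:**
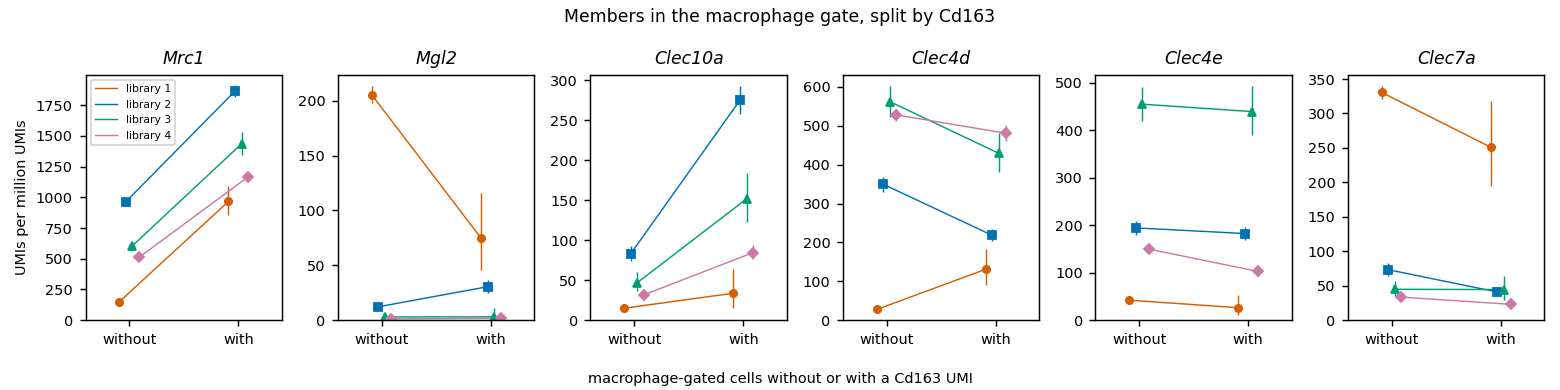
Levels of 6 of the genes (UMIs per 1000000 UMIs, linear axes from 0) in macrophage-gated cells without and with a Cd163 UMI, 1 line per library, with exact 95% Poisson intervals. Mrc1 and Clec10a rise from left to right in all 4 libraries, while Mgl2 and Clec7a are set apart by library 1 on the left of each panel.

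Arginase 1 (Arg1), another M2-associated gene, split the gate differently. Clec10a stood at 85.7, 52.5 and 45.0 CPM in Arg1-positive macrophages of libraries 2, 3 and 4 and at 341, 164 and 64.7 CPM in Arg1-negative ones; in library 1 the values were 17.4 and 13.9 CPM, with overlapping intervals. Clec4d ran the other way, at 45.5, 358, 557 and 535 CPM with Arg1 and 18.7, 155, 408 and 447 CPM without it, higher with Arg1 in 4 of 4 libraries. In macrophages split by the proliferation gene Mki67, Mrc1 was higher in the positive cells in libraries 2, 3 and 4 (1619 against 1355, 895 against 865 and 796 against 735 CPM, with overlapping intervals in library 3) and lower in library 1 (146 against 178 CPM).

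Mgl2 (CD301b, ENSMUSG00000040950) and Clec10a (CD301a, ENSMUSG00000000318) are duplicated galactose-type lectins that lie 18646 bases apart on chromosome 11 (70130329-70137550 and 70156197-70170834) with no coding gene between them. They nevertheless separated by library and by gate. In the DC gate Mgl2 was 399, 1172, 652 and 68.9 CPM in libraries 1 to 4, and Clec10a was 32.1, 336, 192 and 245 CPM. The UMIs of Mgl2 per UMI of Clec10a in the DC gate were 12.4 (7.21 to 23.2) in library 1, 3.49 (3.09 to 3.95) in library 2, 3.4 (2.83 to 4.1) in library 3 and 0.282 (0.227 to 0.347) in library 4. Libraries 2 and 3 were alike within counting error, library 1 lay above and library 4 below.

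In the macrophage gate the contrast was wider. Mgl2 was 203 CPM in library 1, where 621 of 1296 cells held it, and 21.1, 2.95 and 1.35 CPM in libraries 2, 3 and 4. Clec10a was 15.3 CPM in library 1 and 176, 80.5 and 50.3 CPM in the others, and the ratio of Mgl2 to Clec10a UMIs ran from 13.3 (11.5 to 15.3) in library 1 through 0.119 (0.1 to 0.142) in library 2 to 0.0366 (0.0132 to 0.0814) in library 3 and 0.0269 (0.0156 to 0.0434) in library 4. In the T cell gate of library 1, which should lack the gene, Mgl2 was 15.3 CPM. Since 13.77% of the 50-base stretches at the transcript ends of Clec10a occur in Mgl2, and 8.521% of those of Mgl2 in Clec10a, a part of the reads of either could have been set aside or assigned to the other.

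Library 1 differed from each other library by at least 2-fold in the macrophage gate for 7 of the 10 genes. Mrc1, Clec10a, Clec4d and Clec4e were lower, against 8.40% of all genes, and Mgl2, Clec7a and Clec9a were higher, against 4.25%. Clec9a counts there only by its 23 UMIs (1.70 CPM). In the DC gate Mrc1, Clec10a, Cd209a, Clec4d and Clec4e were at least 2-fold lower in library 1 than in each other library, against 10.0% of genes. None of the 10 was higher, against 5.12%. The 43 DC-gated cells of library 1 held 14 UMIs of Clec10a, 6 of Cd209a, 5 of Clec4d and 10 of Clec4e, and Mrc1 at 16.1 CPM. Over the libraries, Clec4d in the DC gate (11.5 to 96.0 CPM) lay at the level of the T cell gate (11.7 to 117 CPM). Clec4e ran from 22.9 to 186 CPM in the DC gate, against 18.5 to 112 CPM in the T cell gate. In the neutrophil gate none of the 10 was at least 2-fold lower in library 1 than in each other library, against 7.82%. Within a gate, another mix of cell states and another level in each cell cannot be told apart.

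Cd209a (ENSMUSG00000031494, chromosome 8: 3743397-3748984, minus strand), a mouse homologue of the adhesion receptor DC-SIGN, was found chiefly in dendritic cells. Its level in the DC gate was 13.8, 906, 389 and 367 CPM in libraries 1 to 4, the first from only 6 UMIs. The plasmacytoid dendritic cell gate, which had 20 cells or more in libraries 2 to 4 and is marked by Siglech, followed with 178, 216 and 78.5 CPM, and macrophages lay at 24.4 CPM in library 2 and at 0 to 1.51 CPM in the others. No T-gated cell of any library held a Cd209a UMI. Of all its UMIs, 56.1% were in the DC gate, and 19.5% in cells with no gate.

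Clec10a shared that plasmacytoid signal, at 202, 339 and 195 CPM in libraries 2 to 4, so that the DC gate and the plasmacytoid gate could not be ordered: their medians were 218 and 202 CPM and their ranges overlapped. The gate held Siglech at 1415 CPM over the libraries, against 10.9 CPM in the DC gate. It also carried fibroblast panel genes at 16956, 648 and 6716 CPM in libraries 2, 3 and 4, and whether cells of mixed content bear on its lectin levels was not tested.

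DC-gated cells with a Cd209a UMI held more of both galactose-type lectins. Library 1 had too few such cells. With Cd209a, Mgl2 was 1397, 1007 and 70.0 CPM in libraries 2, 3 and 4, and Clec10a was 371, 312 and 317 CPM. Without it, Mgl2 was 157, 187 and 67.4 CPM and Clec10a 178, 35.0 and 142 CPM. Both were higher beside Cd209a in each of these 3 libraries, with overlapping intervals for Mgl2 in library 4. Clec4e fell on the other side: 121, 89.1 and 50.7 CPM with Cd209a and 324, 312 and 66.0 CPM without, beyond counting error in libraries 2 and 3 only. Neutrophil panel genes summed to 1296, 2647 and 1186 CPM in the DC gate of libraries 2, 3 and 4. Whether neutrophil transcripts bear on this split was not tested.

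Clec9a (DNGR-1, ENSMUSG00000046080, chromosome 6: 129408862-129424763) binds the actin filaments exposed by dead cells and marks type 1 dendritic cells, which present their antigens to CD8+ T cells. It was at 107, 91.2, 102 and 76.7 CPM in the type 1 dendritic cell gate of libraries 1 to 4. Xcr1, the chemokine receptor of these cells, split the gate: cells with an Xcr1 UMI held Clec9a at 148 CPM in library 1, 108 CPM in library 2 and 111 CPM in library 4, and cells without one at 12.4 CPM in library 1 and 33.6 CPM in library 4. The Xcr1-negative cells of library 4 also held Clec4d at 283 CPM and Mrc1 at 196 CPM, against 23.4 and 21.8 CPM in the positive ones. Plasmacytoid cells came next at 12.4, 38.5 and 24.1 CPM, and 61.8% of only 437 UMIs of the gene fell in the type 1 gate. Clec9a overlaps Clec1b and holds the intronic transcript Gm43914 on the same strand, so its reads can be shared.

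Clec4d (ENSMUSG00000030144) and Clec4e (ENSMUSG00000030142) lie 6523 bases apart on chromosome 6 (123262111-123275265 and 123281789-123289870), 15089 bases from Clec4n on the other side of Clec4d. Their proteins, MCL and Mincle, form a receptor for mycobacterial glycolipid, and Mincle also senses a nuclear protein let out by dying cells. Both had their highest level, as a share of UMIs, in neutrophils. Clec4e in the neutrophil gate was 1441, 3259, 3067 and 1869 CPM in libraries 1 to 4 and in the monocyte gate 269, 523, 951 and 462 CPM, a lead of 5.35-fold (4.05 to 7.22), 6.23-fold (5.86 to 6.64), 3.23-fold (3.09 to 3.37) and 4.05-fold (3.92 to 4.17). No monocyte value reached the lowest neutrophil value. Per cell, neutrophils held more Clec4e UMIs than monocytes in libraries 1, 2 and 3 and fewer in library 4. There, 1846 neutrophils held 6410 and 2604 monocytes 10144.

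Clec4d was 830, 1756, 1734 and 1429 CPM in the neutrophil gate and 359, 558, 816 and 739 CPM in the monocyte gate. Neutrophils were ahead in every library, from 1.93-fold (1.87 to 2.0) in library 4 to 3.15-fold (2.96 to 3.35) in library 2. These are shares of the UMIs of a gate, not counts per cell. Neutrophils were shallower, with medians of 1651, 1788, 1949 and 1738 UMIs a cell, against 4920, 5974, 6528 and 8386 in monocytes. In library 4, 1846 neutrophils held 4901 Clec4d UMIs and 2604 monocytes 16224. In library 2, 2801 neutrophils held 9667 and 332 monocytes 1112. In macrophages both genes fell further, Clec4d to 29.7, 286, 519 and 512 CPM and Clec4e to 41.8, 189, 450 and 133 CPM. Neutrophil panel genes summed to 706, 1795, 2508 and 1407 CPM in the macrophage gate of libraries 1 to 4. In the monocyte gate they summed to 1430, 2114, 3225 and 1669 CPM. Whether neutrophil transcripts bear on the levels of Clec4d and Clec4e in these 2 gates was not tested. Clec4d, Clec4e and Clec7a were at least 2-fold higher in neutrophils than in macrophages in every library, against 6.10% of genes, and Clec4e alone of the 10 was so against monocytes, against 4.52%. Mrc1 and Clec10a were at least 2-fold lower in neutrophils than in macrophages throughout, as were 26.8% of genes. Against monocytes, macrophages were at least 2-fold higher throughout for Clec10a, against 1.59% of genes, and lower for Clec4e, against 0.923%. In library 1 the call of Clec10a rested on 1 of 37 monocytes with a UMI (5.28 CPM), against 15.3 CPM in macrophages. The DC gate was at least 2-fold above macrophages throughout for Cd209a, against 2.15% of genes, and below them for Mrc1 and Clec4d, against 2.95%.

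The balance of both partners shifted between gates. Clec4e UMIs per Clec4d UMI were 1.74 (1.61 to 1.88), 1.86 (1.81 to 1.90), 1.77 (1.73 to 1.81) and 1.31 (1.26 to 1.36) in neutrophils of libraries 1 to 4. In monocytes the ratio was 0.75 (0.511 to 1.09), 0.937 (0.860 to 1.02), 1.17 (1.10 to 1.24) and 0.625 (0.610 to 0.641), below the neutrophil ratio of the same library in 4 of 4. In macrophages it was 1.41, 0.661, 0.867 and 0.260. Library 4 had the lowest ratio in each of these gates.

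At equal depth, with each cell thinned to 1000 UMIs, Clec4d was seen in 53.1% (48.7 to 57.3), 78.6% (77.0 to 80.2), 75.9% (74.3 to 77.5) and 70.2% (68.0 to 72.4) of neutrophils, and Clec4e in 66.0% (61.9 to 70.0), 86.2% (84.8 to 87.5), 78.6% (77.0 to 80.1) and 72% (69.8 to 74.1). The thinning left out 90, 160, 144 and 72 neutrophils of libraries 1 to 4. Unthinned, the shares were 68.8, 89.6, 89.3 and 84.5% for Clec4d and 76.5, 91.9, 87.8 and 85.0% for Clec4e. In the deeper monocytes, 25 of 37, 271 of 332, 326 of 369 and 2356 of 2604 cells held Clec4d unthinned, the last a higher share than in neutrophils. Both were found in the same neutrophil close to as often as their single shares imply: 209 cells against 189 in library 1, 1806 against 1790 in library 2, 1665 against 1635 in library 3 and 922 against 897 in library 4. The ratio of observed to expected was 1.01 to 1.11 there, and 1.05 to 1.14 in monocytes of libraries 2 to 4. With single shares as high as in neutrophils, the observed count could exceed the expected one only by a limited amount. In thinned macrophages, where the shares were lower, the ratio was 1.23, 0.987 and 1.02 in libraries 2, 3 and 4, and library 1 held too few such cells. In unthinned macrophages, which differ in depth, it was 2.07 in library 1 (93 cells against 44.9) and 1.16, 1.09 and 1.10 in libraries 2 to 4. Pairs of Clec4n with either gene in neutrophils ran from 0.996 to 1.07.

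**Figure D3:**
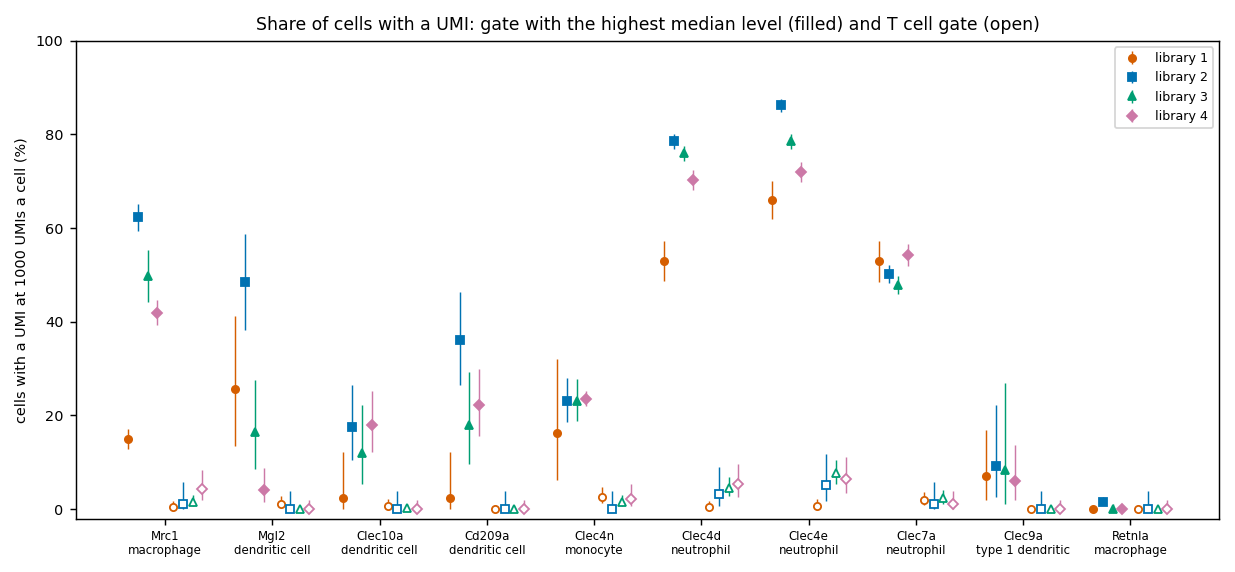
Share of cells (%) with at least 1 UMI of each gene after thinning to 1000 UMIs a cell, in the gate with the highest median level (filled, named under the gene) and in the T cell gate as background (open), 1 point per library with exact 95% binomial intervals. Mrc1, Clec4n, Clec4d, Clec4e and Clec7a clear the background in all 4 libraries.

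The T cell gate, which should lack these genes, gave a background whose source was not tested. Thinned T cells held Clec4e in 0.719% (0.149 to 2.09) of library 1 and 7.68% (5.46 to 10.4) of library 3, while Clec4d reached 5.41% (2.62 to 9.72) in library 4. For Mrc1, Clec4n, Clec4d, Clec4e and Clec7a the lower bound in the leading gate was above the upper bound in T cells in every library, although Clec4n lost this at 500 UMIs a cell and when 2 UMIs were asked for. For Mgl2, Clec10a, Cd209a and Clec9a this failed in at least 1 library at 1000 UMIs, and for Retnla it failed throughout: 18 of 1111 thinned macrophages of library 2 held it and 0 of 95 T cells, which allows a share of up to 3.16%.

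Clec7a (ENSMUSG00000079293, chromosome 6: 129461591-129472779), the beta-glucan receptor Dectin-1, was even across libraries in neutrophils and uneven elsewhere. GENCODE vM21 lists it as a polymorphic pseudogene, its class for genes that are intact in some strains and broken in others. Its neutrophil level was 993, 1057, 883 and 1006 CPM in libraries 1 to 4. Its monocyte level went from 644 CPM in library 1 through 473 and 253 CPM to 171 CPM in library 4. The lead of neutrophils thus ran from 1.54-fold (1.28 to 1.87) to 5.89-fold (5.62 to 6.17), as a share of UMIs. Per cell, neutrophils held fewer Clec7a UMIs than monocytes in libraries 1 and 2 and more in libraries 3 and 4. In library 1, 629 neutrophils held 1192 and 37 monocytes 122, and in library 4, 1846 neutrophils held 3451 and 2604 monocytes 3751. In macrophages Clec7a was 329 CPM in library 1 and 57.5, 44.7 and 29.7 CPM in the others. In the DC gate it was 463, 283, 174 and 76.6 CPM. Thinned shares put it in 23.4% (21.0 to 25.9) of macrophages of library 1 and in 2.44% (1.69 to 3.39) of those of library 4 (unthinned, 70.7 and 15.1%).

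Clec4n (Dectin-2, ENSMUSG00000023349, chromosome 6: 123229843-123247021), which binds fungal mannans, had no leading gate. It was 189, 356, 450 and 246 CPM in neutrophils, 296, 337, 334 and 322 CPM in monocytes, 417, 266, 183 and 157 CPM in macrophages and 381, 332, 274 and 229 CPM in the DC gate. Macrophages were highest in library 1, neutrophils in libraries 2 and 3 and monocytes in library 4, and the first and second gates differed by only 1.06-fold (0.967 to 1.16) to 1.35-fold (1.25 to 1.46). Type 1 and plasmacytoid dendritic cells held far less, at 4.13 to 69 CPM. Neutrophils without Retnlg, a resistin-like gene of neutrophils, held more Clec4n in 4 of 4 libraries (360, 388, 521 and 275 CPM) than those with it (101, 279, 364 and 210 CPM).

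**Figure D4:**
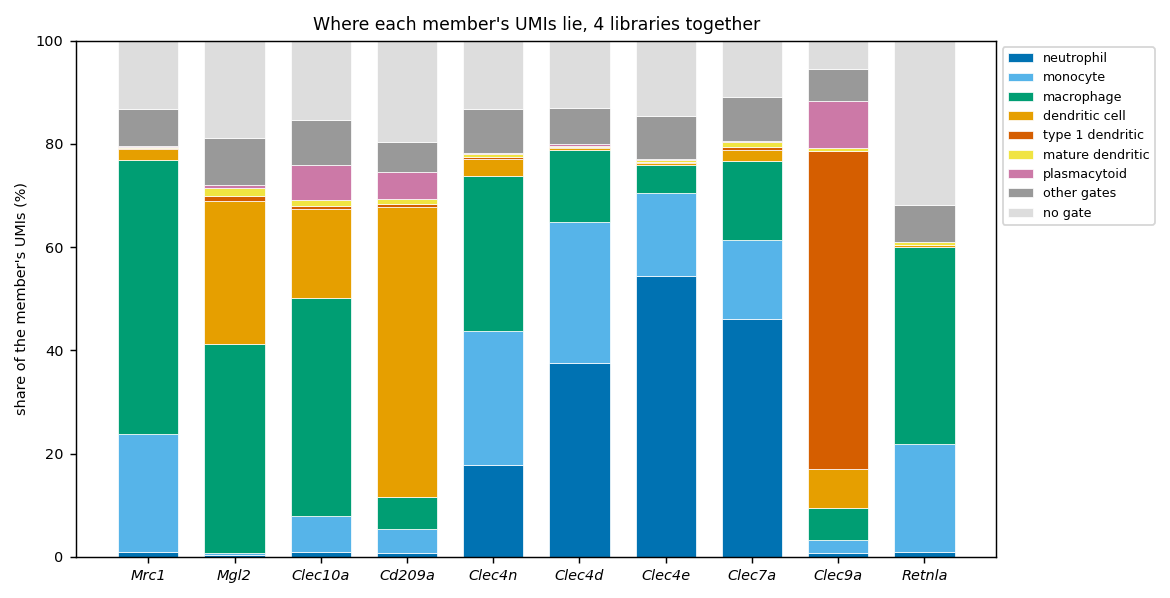
Share of all UMIs of each gene (%) by gate, with the 4 libraries together; shares follow the number and depth of cells in a gate as well as the level. Mrc1 has 53.1% of its UMIs in macrophages, Clec4e 54.4% in neutrophils, Cd209a 56.1% in the DC gate and Clec9a 61.8% in type 1 dendritic cells, while macrophages, monocytes and neutrophils hold 29.9, 26.0 and 17.9% of Clec4n. Mgl2 and Clec10a, whose median level is highest in the DC gate, have 27.8 and 17.2% of their UMIs there and 40.4 and 42.4% in macrophages.

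Retnla (ENSMUSG00000061100, chromosome 16: 48842551-48844461), a secreted product of IL-4-stimulated macrophages, was nearly confined to library 2, which held 1135 of its 1195 UMIs (95%). The level in macrophages was 1.63, 59.9, 0.982 and 0.159 CPM in libraries 1 to 4, and in monocytes 0, 124, 0.422 and 0.182 CPM. A count of 0 in the 37 monocytes of library 1 allows up to 15.8 CPM. The library 2 values rested on single cells: 1 macrophage held 233 of the 429 macrophage UMIs and 1 monocyte 206 of the 247 monocyte UMIs, and these 2 cells had 36.7% of all Retnla UMIs of the matrix. In all, 150 of 32133 cells held any, and 31.9% of the UMIs lay in cells with no gate.

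The 42 macrophages of library 2 with a Retnla UMI were higher than the 1126 without in Cd163 (1062 against 467 CPM), Clec10a (371 against 168 CPM) and the chemokine Ccl24 (430 against 274 CPM). They were lower in Arg1 (846 against 1760 CPM) and Clec4d (113 against 293 CPM), and Mrc1, at 1251 against 1408 CPM, and Chil3, a chitinase-like protein also raised by IL-4, at 20.6 against 43.2 CPM, had overlapping intervals. Mrc1 and Retnla were in the same thinned macrophage of that library 9 times, against 11.2 expected. Unthinned, they were in the same macrophage 40 times, against 36.8 expected. Of the other resistin genes, neutrophils led Retnlg, which is in their panel, at a median of 1634 CPM against 19.1 CPM in macrophages, and Retn, at 23.3 CPM against 0.518 CPM.

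The genes that act with these receptors were described by the same count, beside the 13.9% of all genes with the same leading gate in every library. Of 16 genes of lectin signalling, 3 kept such a gate, a share near that of all genes: Syk (median 324 CPM in neutrophils, 133 CPM in monocytes) and the adaptor Hcst in neutrophils, and the kinase Lyn in monocytes. Fcer1g, the signalling chain of Dectin-2 and Mincle, had medians of 3906, 3572 and 3360 CPM in neutrophils, monocytes and macrophages, and Card9 lay at 8.59 to 16.4 CPM in the 4 gates of neutrophils, monocytes, macrophages and DC. Of the 10 cytokine genes downstream, 5 kept a leading gate, with Il1b, Cxcl2, Tnf and Il23a in neutrophils (median of Il1b 13630 CPM) and Il10 in macrophages (62.0 CPM). The list of IL-4 and IL-13 signalling and alternative activation holds Chil3 and the chemokine Ccl22. These were used in the monocyte and mature dendritic cell panels, so their levels by gate were partly set by the gating. Of the 20 measured genes of this list, 8 kept a leading gate. Among them were Cd163 and Folr2, a folate receptor, in macrophages (238 and 371 CPM) and Il13ra1 and Stat6 in neutrophils. Il4 had a median of 0 CPM in each of these gates.

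Of 19 other measured C-type lectins, 3 kept a leading gate, also near the 13.9% of all genes: the lectin-related Clec2d and Clec1a in neutrophils and Clec4a2, an inhibitory lectin, in monocytes. Cd209d, a relative of Cd209a, had medians of 271 CPM in the DC gate and 322 CPM in plasmacytoid cells. Those of Cd209a were in the other order, at 378 and 178 CPM. Of 5 trafficking genes, only the scavenger receptor Stab1 kept one, in macrophages (380 CPM).

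Across the 48 sums of a gate and a library, Pearson's r of log2(CPM + 1) named for each gene the 3 genes most like it among 14016. These points share libraries and depth, so r is a description. Clec4e was most like Clec4d (r = 0.924), then the arginase Arg2 (0.923) and the pyrin gene Mefv (0.914), and Mefv was also near Clec4d (0.930) after Slfn4 (0.934). Clec7a was most like Il1b (0.907) and Cd14 (0.887), Mrc1 like Nxpe5 (0.910), Clec4a1 (0.890) and the endocytic adaptor Dab2 (0.881), and Clec4n like the signal-regulatory genes Sirpb1b (0.917) and Sirpb1c (0.914). Cd209a was most like Cd209d (0.903) and Cd209e (0.858), and Clec10a like the lipid transfer gene Pltp (0.861). Mgl2, whose nearest gene was Dcstamp (0.718), and Retnla, nearest to Cd209f (0.738), had no close match. For Clec9a the first gene was Gm43914 (0.982), which lies within it.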

How the data were processed

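The authors deposited 1 matrix of UMI counts, raw and not normalized, from 10x Genomics libraries. Its labels, text and header name Cell Ranger 2.1.1, 3.0.2 and 6.1.2, and the submitters' notes name mm10; the study's methods name filtering by Cell Ranger, then removal of cells under 300 genes or over 15% mitochondrial counts, leaving 15603 cells by the design text. The deposited file held 33064 barcodes, of which the same limits kept 32133, so it had not been cut to that set. Each library held 6783 to 8889 kept barcodes and 69144957 to 108363974 kept UMIs. Gates used mean z-scores, limited to 5, of log(1 + UMIs per 10000) over a panel; the best panel had to exceed 0.2 and lead by 0.1, and dendritic gates also needed a UMI of a defining gene. 1 panel gene was absent from the file. UMIs were summed per gate and library with Python 3.11.15, numpy 2.4.6, scipy 1.17.1 and scanpy 1.11.5, and the scripts were tested on simulated data. Leading gates needed 20 cells; folds used a pseudocount of 1 CPM. UMI counts were not compared between genes, except as ratios across gates. Scrublet at its own threshold marked 0 to 2.75% of cells and failed in libraries 2 and 3, so no doublets were removed; dropping the highest 5% of scores was an alternative. All 10 genes are named, with the genes of 6 lists and the 3 nearest by correlation. The genes and lists were chosen with earlier results of these data known. All 55450 genes matched GENCODE vM21.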

Additional observations from a re-analysis of the deposited data

Results flagged for a closer look

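For each gene, the 4 libraries were compared within each gate that held at least 20 cells in all of them. A set entered where some library held at least 20 UMIs of the gene. Of 40 such sets, 7 had 1 library far from the other 3 for its own spread. The cut-off is one that sets apart about 1 in 20 by chance. The sets share the same 4 libraries, and 1 high library is enough for a set to enter. Retnla of the monocyte gate entered by the 247 UMIs of library 2, and Clec9a of the macrophage gate by the 23 UMIs of library 1. The count of 7 is thus a description, and no excess over chance is read from it. In the macrophage gate, library 1 stood apart for Mgl2 (202.9 CPM), for Clec7a (328.9 CPM) and, at very few UMIs, for Clec9a (1.70 CPM). The tumour gate held 50.6% of the cells of that library, and its share in these values was not tested. Library 2 stood apart in the macrophage gate for Cd209a (24.4 CPM) and Retnla (59.9 CPM) and in the monocyte gate for Retnla (123.9 CPM). The Retnla values rested on 1 cell in each gate for most of their UMIs. In the type 1 dendritic cell gate, Clec4e of library 1 was below the others at 18.5 CPM. The range of Clec4e in that gate, 18.5 to 76.0 CPM, lay at the level of the T cell gate (18.5 to 112 CPM).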

How the results depend on the processing

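The number of genes with the same leading gate in every library was 7 and ranged from 5 to 8 over all alternatives, and from 7 to 8 when 1 library was left out. It was 6, without Clec9a, with 1 panel gene more per gate or with an Xcr1 UMI asked of type 1 dendritic cells. It was 6, without Cd209a, with cells thinned to 1000 UMIs. The 5, without Mgl2, Cd209a and Clec9a, came from removing cells with tumour, stromal or lymphoid genes. The number led at least 2-fold in every library was 2 (Clec4e and Clec9a). It was 1 (Clec4e) with 1 panel gene more per gate, with cells thinned to 1000 UMIs, and with an Xcr1 UMI asked of type 1 dendritic cells, which left under 20 of them in library 3. Leaving out a library gave 3 to 4, the 4 (Mgl2, Clec4e, Clec7a and Clec9a) without library 1. The number of genes whose share of cells was above the T cell gate in every library was 5. It was 9 without thinning, 4 at 500 UMIs a cell or with 2 UMIs asked for (both without Clec4n), and 5 to 7 with 1 library left out. The ratio of observed to expected cells with both Clec4d and Clec4e among neutrophils was 1.02 in the median and 1.02 to 1.03 with a library left out. Of 165 single log2 ratios of the leading gate to the next, 145 moved by less than the spread between libraries, 9 moved by more in the same direction, and 11 turned. For Clec4n, monocytes against the next gate turned from 0.11 to -0.021 as a mean over cells, -0.065 when thinned and -0.14 with libraries pooled, and ran from -0.091 to 0.23 with a library left out (below 0 without library 1, 3 or 4). For Clec10a, the DC gate against the next turned from 0.11 to -0.13 as a mean over cells, -0.70 when thinned, and ran from -0.49 to 0.30 with a library left out (below 0 without library 2 or 4). For Retnla, macrophages against monocytes turned from 0.82 to -0.064 when thinned. The cause was not tested. Removing cells with any UMI of 8 tumour, stromal or lymphoid genes left 263 of 2096 myeloid cells in library 1, so few gates could be compared. It left 2, 1, 3 and 3 gates in libraries 1 to 4, so library 2 entered no comparison. Among the gates left, the genes led at least 2-fold were Clec10a, Clec4e and Clec7a, without Clec9a. The type 1 dendritic cell gate and the DC gate were left in too few libraries for a ratio. This setting thus cannot test the leads of Clec9a, Mgl2 and Cd209a, and Clec10a was led there by a gate other than the DC gate. The pooled libraries, the Xcr1 rule and the removal of the 2 richest Retnla cells were chosen after seeing the data. The last changed no gate that led by the median over libraries. The lead of monocytes for Retnla within library 2 rested on 1 of these cells. No paired analysis was possible because barcodes are tied to no sample, so no treatments could be paired; gates were compared within each library. Small dendritic gates and 437 Clec9a UMIs limit what their shares can show.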
